A study of Mus musculus with 9 samples.

Results

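The genes described here encode the interleukin-36 (IL-36) ligands and the chains of their receptor. They are 6 of the 55401 genes in the count table, namely Il1f6, Il1f8 and Il1f9, which encode the agonists IL-36α, IL-36β and IL-36γ, Il1f5, which encodes the IL-36 receptor antagonist, Il1rl2, which encodes the receptor, and Il1rap, which encodes the accessory chain that the receptor shares with other interleukin-1 family receptors. They were matched by gene name and joined by gene identifier. They were chosen from their measured difference between the groups in these same libraries, so their fold changes are given as a description and without a test. All 6 passed the filter on low counts, as did 20817 genes in total.

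RNA was sequenced from the back skin of male C57BL/6 mice that were 6 to 8 weeks old when the study began. In both groups the skin was painted with 2,4-dinitrochlorobenzene (DNCB), a small reactive molecule that raises contact allergy, with 200 µL of 1% DNCB on day 1 and 100 µL of 0.5% DNCB from day 4 to day 21. The FJDHF group, FJDHF-M in the study, received the Fangji Dihuang formulation, a herbal decoction, by mouth after day 7 until day 28, and the Model group received water over the same time. No library from unpainted skin was analysed here, so each value below compares treated with untreated dermatitis. Libraries coded MR (5) were assigned to the FJDHF group and those coded MXL (4) to the Model group. Neither the labels nor the methods explain these codes, and the direction of each comparison rests on that assignment. No code was matched to a mouse, codes such as MR3_4 and MXL12 could mark pooled RNA, and n counts libraries throughout.

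IL-36 agonists are made mainly by epithelial cells, above all by keratinocytes of the upper epidermis. They are released without a signal peptide, become active once a protease has trimmed the N-terminus, and bind IL1RL2, which then recruits IL1RAP and signals through MYD88 to NF-κB and MAP kinases. The antagonist binds IL1RL2 without recruiting IL1RAP. In people, loss of the antagonist causes a pustular form of psoriasis, and the agonists are abundant in inflamed skin.

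The 4 ligand genes lie on the plus strand of mouse chromosome 2 within 130 kb (build GRCm38). Il1f8 (ENSMUSG00000026985) spans chr2:24153161-24160519, Il1f9 (ENSMUSG00000044103) spans chr2:24186476-24193568, Il1f6 (ENSMUSG00000026984) spans chr2:24215418-24225702 and Il1f5 (ENSMUSG00000026983) spans chr2:24276954-24283426. The receptor genes lie elsewhere, Il1rl2 (ENSMUSG00000070942) at chr1:40324610-40365471 and Il1rap (ENSMUSG00000022514) at chr16:26581704-26730117, both on the plus strand. No exon of the ligand genes or of Il1rl2 overlaps an exon of another gene in GENCODE M21. Exons of Il1rap overlap those of Gm20319 on the other strand, and whether reads were counted by strand is not given in the sources used here, so its counts could include reads of that gene.

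Because the ligand genes lie side by side and had similar patterns over the libraries, the sequences before their start sites are shown. They are RefSeq promoter windows of GRCm38.p6, 5′ to 3′ on the plus strand, at chr2:24152922-24153160 for Il1f8, chr2:24186226-24186475 for Il1f9 and chr2:24276704-24276953 for Il1f5, with capitals at motif matches.
Il1f8: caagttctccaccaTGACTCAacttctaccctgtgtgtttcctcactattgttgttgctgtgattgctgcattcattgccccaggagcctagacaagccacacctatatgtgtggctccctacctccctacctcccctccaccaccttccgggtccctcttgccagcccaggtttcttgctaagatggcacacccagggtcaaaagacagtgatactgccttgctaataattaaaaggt
Il1f9: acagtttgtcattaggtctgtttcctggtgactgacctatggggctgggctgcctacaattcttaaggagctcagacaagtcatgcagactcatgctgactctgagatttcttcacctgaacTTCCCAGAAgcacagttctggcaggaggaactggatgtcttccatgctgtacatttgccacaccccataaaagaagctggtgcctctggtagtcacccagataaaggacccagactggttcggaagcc
Il1f5: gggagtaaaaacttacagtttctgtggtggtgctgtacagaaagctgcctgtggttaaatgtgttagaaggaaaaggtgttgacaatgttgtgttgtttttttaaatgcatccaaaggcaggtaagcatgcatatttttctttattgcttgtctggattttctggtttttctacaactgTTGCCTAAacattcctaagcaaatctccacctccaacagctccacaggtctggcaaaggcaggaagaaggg
Motifs were searched on both strands in the printed bases, with distances counted back from the RefSeq start. The capitals mark TGANTCA, the letters bound by AP-1, in Il1f8 at 236 bases before the start, TTCNNNGAA, bound by STAT factors, in Il1f9 at 128 bases, and TTGCNNAA, bound by C/EBP factors, in Il1f5 at 71 bases. Of 32851 promoters in the table, read over 250 bases before the start, 6.75% held the AP-1 letters, 7.02% the STAT letters and 9.56% the C/EBP letters. The NF-κB letters GGGNNNNNCC, present in 45.8% of the promoters, and the TATA letters TATAAA, present in 12.4%, had no match in the 3 sequences. No motif was shared by 2 of the 3 printed sequences. RefSeq lists a second start of Il1f5, inside the gene, whose window (from chr2:24277021, not printed) held a match to the STAT letters at 98 bases and to the NF-κB letters at 63 bases before that start. With it, the STAT letters were found before starts of both Il1f9 and Il1f5. A match describes letters only, and Il1f6 had no entry in the table.

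Total counts per library lay between 74648669 and 79474215, so depth differed little and the IL-36 genes had 801 to 28769 counts each. The Model library MXL12 had far higher levels of some inflammatory genes than the other 8, among them Il1b, Cxcl5 and Cxcr2, and results that moved when it was left out are given with and without it.

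All 4 ligand genes had higher mean levels in the FJDHF group than in the Model group, from 1.73-fold for Il1f9 to 3.43-fold for Il1f6. Both receptor genes had slightly lower mean levels. No gene of the 6 separated the groups completely, beside 0.514% of the 20817 tested genes whose groups did not overlap. Each ligand had its lowest FJDHF value in the same library, MR3. Levels are given below as CPM, counts scaled to the library's depth after TMM normalization.

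Il1f6, the agonist IL-36α, had 99.9 CPM in MR1, 21.1 in MR3, 71.4 in MR3_4, 81.1 in MR4_5 and 60.7 in MR5. The Model values were 18.01 CPM in MXL1, 27.3 in MXL12, 21.5 in MXL3_4 and 11.1 in MXL_3. Of the FJDHF libraries 4 lay above every Model library, and MR3 lay within the Model range. The means were 66.8 ± 29.4 CPM (SD, n = 5) and 19.5 ± 6.80 CPM (SD, n = 4), respectively, and the fitted log2 fold change was 1.78 (SE 0.42), the largest of the 6.

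Il1f8, the agonist IL-36β, had 105.3 CPM in MR1, 34.3 in MR3, 83.9 in MR3_4, 89.7 in MR4_5 and 65.9 in MR5, against 46.9 in MXL1, 39.2 in MXL12, 38.4 in MXL3_4 and 15.995 in MXL_3. Again 4 FJDHF libraries exceeded all Model libraries and MR3 did not. The log2 fold change was 1.11 (SE 0.37).

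Il1f9, the agonist IL-36γ, had 114.3 CPM in MR1, 48.4 in MR3, 94.3 in MR3_4, 108.7 in MR4_5 and 96.9 in MR5, against 61.3 in MXL1, 78.0 in MXL12, 46.0 in MXL3_4 and 29.0 in MXL_3. The same 4 FJDHF libraries were above the Model range, and MR3 lay between the Model libraries. The log2 fold change was 0.79 (SE 0.32), the smallest of the ligands.

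Il1f5, the antagonist, had 382.1 CPM in MR1, 172.4 in MR3, 276.2 in MR3_4, 361.9 in MR4_5 and 192.7 in MR5. The Model values were 206.3 CPM in MXL1, 100.1 in MXL12, 123.7 in MXL3_4 and 88.9 in MXL_3. Here 3 FJDHF libraries exceeded the Model range, while MR3 and MR5 fell below the highest Model library, MXL1. The means were 277.0 ± 95.3 CPM (SD, n = 5) and 129.7 ± 53.1 CPM (SD, n = 4), with a log2 fold change of 1.09 (SE 0.32).

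Il1rl2, the receptor, had 121.8 CPM in MR1, 107.4 in MR3, 107.6 in MR3_4, 142.5 in MR4_5 and 165.7 in MR5, against 126.4 in MXL1, 198.3 in MXL12, 154.9 in MXL3_4 and 135.8 in MXL_3. The groups overlapped over most of their range, with 3 FJDHF libraries below every Model library. The log2 fold change of -0.25 (SE 0.19) became -0.11 without MXL12.

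Il1rap, the accessory chain, had 75.04 CPM in MR1, 55.8 in MR3, 69.7 in MR3_4, 79.3 in MR4_5 and 94.7 in MR5, against 75.9 in MXL1, 184.6 in MXL12, 90.2 in MXL3_4 and 81.7 in MXL_3. A single Model library, MXL12, stood far above the other 8. As for Il1rl2, 3 FJDHF libraries lay below every Model library, MR1 only narrowly. The log2 fold change was -0.53 (SE 0.27) with MXL12 and -0.14 without it.

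**Figure D1:**
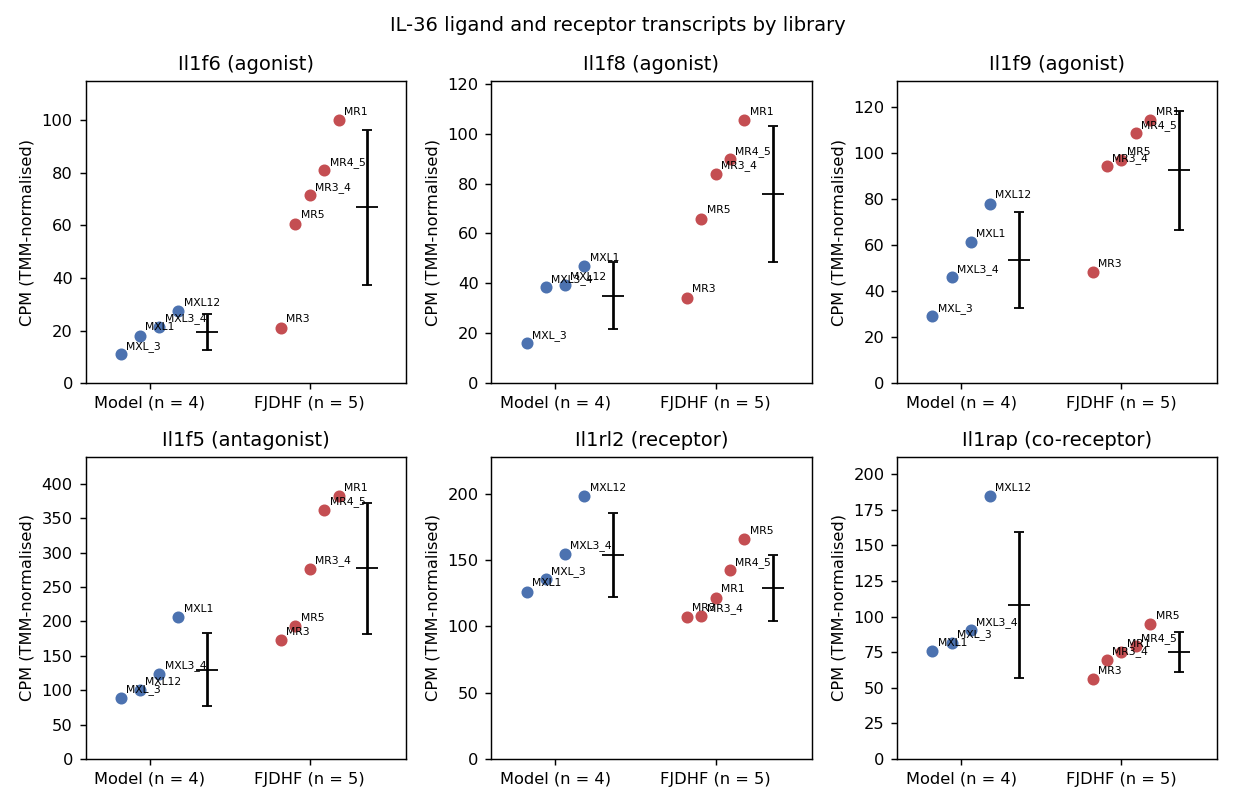
CPM of each IL-36 gene (vertical axes from 0) in every library, by group, with black bars for the mean and SD. For Il1f6, Il1f8 and Il1f9, 4 of 5 FJDHF libraries lie above the 4 Model libraries and MR3 does not, and for Il1rap the Model library MXL12 stands at 184.6 CPM.

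Levels of different genes were compared per length, as FPKM, the authors' counts scaled for gene length and depth. Over the 9 libraries the median FPKM was 44.7 for Il1f9, 41.7 for Il1f5, 37.5 for Il1f8, 29.3 for Il1f6, 18.1 for Il1rl2 and 6.54 for Il1rap. The ranges of the 4 ligands overlapped widely, so their order is not resolved beyond the spread. Il1rl2 was above Il1rap in each of the 9 libraries. The order of the ligands differed between the groups. In the FJDHF group the median FPKM was 73.8 for Il1f6, 62.9 for Il1f8, 57.2 for Il1f9 and 56.1 for Il1f5, and in the Model group it was 21.3, 29.9, 31.1 and 23.4 for the same genes. Il1f6 had the highest FPKM of the 6 genes in MR1, MR3_4, MR4_5 and MR5 and in no Model library.

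The length behind the FPKM matters for these comparisons. Counts and FPKM together imply 4700 to 4784 bases for Il1f5, whereas its longest coding transcript has 2842 bases. The same holds for Il1rl2 (7125 to 7250 against 3908 bases) and Il1rap (11883 to 12090 against 4520 bases), while the implied lengths of the agonists were near those of their only coding transcripts. With the longest coding transcript as length, a choice made after the data were seen, Il1f5 had the highest median of the 6 genes, 69.1 on the FPKM scale, Il1rl2 had 33.6 and Il1f6 had 30.8. Il1f5 then also had the highest median within each group. It was 93.7 in the FJDHF group, where Il1f6 had 78.0, and 38.7 in the Model group, where Il1f6 had 22.3. The lead of Il1f6 over Il1f5 in the FJDHF group thus depended on the length used. The order of the agonists among themselves did not depend on this choice.

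Il1f6 made up a larger part of the agonist transcripts in the FJDHF group. It accounted for 42.1% of the summed agonist FPKM in MR1, 29.3% in MR3, 39.0% in MR3_4, 39.7% in MR4_5 and 37.8% in MR5, against 21.2% in MXL1, 28.0% in MXL12, 29.1% in MXL3_4 and 28.9% in MXL_3. The groups did not overlap, though MR3 and MXL3_4 lay next to each other, while for the shares of Il1f8 and Il1f9 they overlapped. These genes were chosen by their group difference, and Il1f6 had the largest fold change of them. No background was computed for such shares, so the separation is a description only. The share of Il1f9 was 30.1 ± 4.12% (SD, n = 5) in the FJDHF group and 38.9 ± 4.10% (SD, n = 4) in the Model group, and that of Il1f8 was 32.3 ± 1.79% and 34.3 ± 5.39%.

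Antagonist and agonists were both higher, and the ratio between them overlapped between the groups. The summed agonist FPKM was 185.3 ± 66.2 (SD, n = 5) in the FJDHF group and 78.9 ± 28.5 (SD, n = 4) in the Model group. The ratio of Il1f5 to this sum was 0.316 in MR1, 0.471 in MR3, 0.297 in MR3_4, 0.348 in MR4_5 and 0.236 in MR5, against 0.478 in MXL1, 0.202 in MXL12, 0.328 in MXL3_4 and 0.457 in MXL_3. The Model values enclosed all FJDHF values, but the lower end of the Model range was MXL12 alone, and MR1, MR3_4 and MR5 lay below the other 3 Model libraries. The mean log2 ratio differed by -0.09 with all libraries and by -0.35 without MXL12 (FJDHF minus Model), beside an SD of 0.36 in the FJDHF and 0.57 in the Model libraries.

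**Figure D2:**
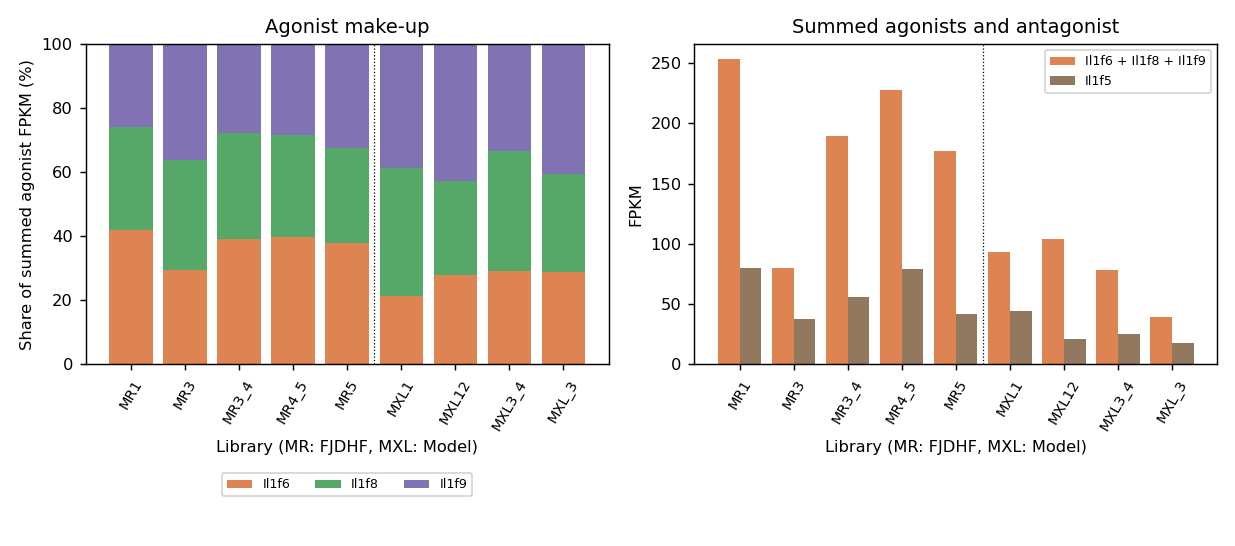
Left, share of Il1f6, Il1f8 and Il1f9 in their summed FPKM (percent) in each library. Right, summed agonist FPKM and Il1f5 FPKM in each library, with a dotted line between the FJDHF (MR) and Model (MXL) libraries. The Il1f6 share is 29.3% to 42.1% in the MR libraries and 21.2% to 29.1% in the MXL libraries.

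The ligands varied together from library to library and the receptor chains did so too. On log2(CPM + 0.5) over the 9 libraries, Pearson's r between ligand pairs lay between 0.78 for Il1f5 with Il1f9 and 0.95 for Il1f8 with Il1f9. Il1rl2 and Il1rap had r = 0.91 and Spearman's rho = 0.98. Pairs of a ligand and a receptor chain had r from -0.48 to 0.12. Without MXL12, ligand pairs had r of 0.88 (Il1f5 with Il1f6) to 0.98 (Il1f8 with Il1f9), and Il1f5 with Il1f9 had 0.93. Pairs of a ligand and a receptor chain then had r of -0.27 to 0.07, and the receptor pair 0.91. With the group means removed over all 9 libraries, ligand pairs kept r of 0.59 to 0.91 and the receptor pair 0.89. Pairs of a ligand and a receptor chain there had r of -0.23 to 0.66, the highest being Il1f9 with Il1rap. Removing the group means thus raised the r of ligands with receptor chains. These are descriptions with no p, since the genes were chosen by their group difference and share libraries and tissue make-up.

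The genes most like each member were found over all tested genes by the same r. For Il1f6 they were Serpinb3d (0.96), Tmem81 (0.96), Klf3 (0.95), Stfa3 (0.94) and Gm19744 (0.94). Klf3 encodes a transcription factor of the Krüppel-like family, and Serpinb3d and Stfa3 encode inhibitors of proteases from clustered gene families whose reads can be shared between copies. Serpinb3d reached at most 2.63 CPM and Gm19744 at most 0.691 CPM. For Il1f8 they were Gm11992, Hspa1b and Gm6557 (0.98, 0.97 and 0.96), and for Il1f9 Gm6551, Teddm3 and Serpinb3b (0.98, 0.97 and 0.97). Hspa1b encodes a heat shock protein and has a nearly identical neighbour. For Il1f5 they included Serpina12 (0.96) and the interleukin-1 family cytokine gene Il18 (0.95). For Il1rl2 they were Lysmd3, Gng12 and Pappa (0.97, 0.96 and 0.96). For Il1rap they were Tmem156 (0.99), Il18rap (0.97), the accessory chain of the interleukin-18 receptor, and Ppp1cc (0.97). Without the 2 libraries farthest from the median of Il1rap, r with Il18rap dropped to 0.51.

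Other genes of the pathway were tested in the same edgeR fit over all genes. In that fit 0 of 20817 genes (0.0%) had an adjusted p under 0.05 with a fold change of at least 2, against 2 with DESeq2. At an unadjusted p under 0.05, 161 genes (0.773%) were higher and 158 (0.759%) lower in the FJDHF group. Of 81 tested genes from 5 lists around IL-36, 1 was higher and 1 was lower by that measure, and their median log2 fold change was -0.08, beside -0.03 over all tested genes.

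Of 13 tested interleukin-1 family neighbours, 1 was higher and 0 were lower. This was Il18, an epidermal cytokine of the same family, with a log2 fold change of 0.65 (SE 0.24). Its unadjusted p was 0.0229 in edgeR's quasi-likelihood test and its adjusted p was 1.00. The list had a median of -0.49 with MXL12 and 0.20 without it. Beyond Il1f5 on chromosome 2 lie Il1f10, which encodes IL-38, a further ligand held to be antagonistic, and Il1rn, which encodes the interleukin-1 receptor antagonist. Il1f10 had 4.69 ± 3.74 CPM (SD, n = 5) in the FJDHF libraries against 3.58 ± 2.29 CPM (SD, n = 4) in the Model libraries. Its highest value, 10.9 CPM, was in MR3, where the IL-36 ligands had their lowest FJDHF values. Il1rn had 73.9 ± 19.0 and 80.5 ± 50.1 CPM. Their log2 fold changes were 0.39 (SE 0.61) and -0.12 (SE 0.35), and neither passed the test.

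Of the proteases known to trim IL-36 ligands, Ctss, the cathepsin S gene, had a log2 fold change of 0.02 (SE 0.37). Ctsg, the neutrophil cathepsin G gene, was near the floor, with 0.144 CPM in the FJDHF and 0.315 CPM in the Model group on average and a log2 fold change of -1.12 (SE 0.58). Elane and Prtn3, the other neutrophil proteases, did not pass the filter on low counts. Neither of the 2 tested genes passed the edgeR test, and Ctsg was lower with limma on FPKM at both pseudocounts.

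All 29 genes of MyD88 and NF-κB signalling were tested, and 0 were higher or lower at an unadjusted p under 0.05. The median log2 fold change was -0.02. The smallest p belonged to Tnfaip3, an inhibitor of NF-κB, with -0.35 (SE 0.19), and to the AP-1 gene Fos, with 1.34 (SE 0.77).

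Of 25 tested genes that IL-36 is known to induce, 0 were higher and 1 was lower. This was Cxcl5, which encodes a neutrophil-attracting chemokine. It had 96.8 CPM in MXL12, 0.152 to 0.581 CPM in the other Model libraries and at most 1.94 CPM in the FJDHF libraries, so its log2 fold change of -4.98 (SE 1.81, edgeR unadjusted p = 0.0201, adjusted p = 1.00) rested on that library. The median of the list was -0.58 in the main edgeR fit and -0.33 with at least 10 counts in every library. With limma on FPKM it was -0.08 and -0.05 at pseudocounts of 1 and 0.1. Cxcl3, Csf2, Il23a, Il12b, Camp and Defb14 had at most 3 counts in at least 1 library. Without MXL12 the edgeR median was 0.81, and Cxcl5 no longer passed. In that fit 20 of the 25 genes had a log2 fold change above 0, beside 9614 of the 21332 genes tested. Over all 5 lists 4 genes were then higher and 0 lower, beside 223 higher and 144 lower over all genes. They were Krt16, a keratin of activated epidermis, at 2.40 (SE 0.70), Il1b at 2.06 (SE 0.88), the chemokine gene Cxcl1 at 1.53 (SE 0.65) and Il18 at 0.63 (SE 0.28), named after their values were seen. Il1b had -3.36 (SE 1.61) with all 9 libraries, so its direction turned with that library, which held 659.7 CPM. Apart from MXL12, the highest Il1b level was in MR4_5, with 50.2 CPM against 3.30 to 14.1 CPM in the other FJDHF libraries. The remaining Model libraries had 2.23 to 5.95 CPM. A fit without both MXL12 and MR4_5 was not made. All 4 genes named without MXL12 had an adjusted p of 1.00.

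Of 12 tested cytokines and receptors known to raise or lower IL-36 ligands in epidermis, 0 were higher or lower in the FJDHF group. Their median was 0.01. Egfr, the epidermal growth factor receptor gene, had -0.25 (SE 0.17) and Tlr3, a sensor of double-stranded RNA, had -0.15 (SE 0.18). Il17a, Il22 and Il13 did not pass the filter on low counts.

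**Figure D3:**
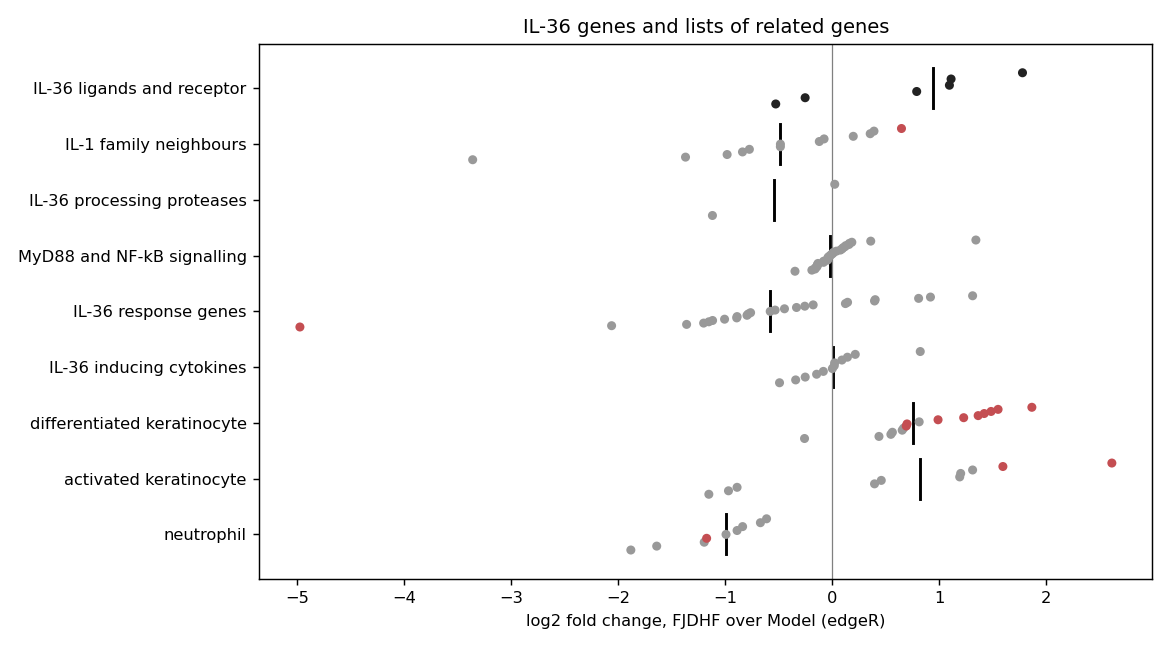
Log2 fold change of FJDHF over Model (horizontal axis) for the IL-36 genes and for each tested gene of the related lists. Black dots are IL-36 genes, shown without a test, red dots are list genes at an unadjusted p under 0.05 in the edgeR fit, grey dots are the other list genes and black bars are medians. The medians are 0.75 for differentiated keratinocyte markers and -0.02 for MyD88 and NF-κB signalling.

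Like the ligands, most markers of the upper epidermis had higher levels in the FJDHF group, but the match did not hold in every library. Of 16 markers of differentiated keratinocytes, 9 were higher and 0 lower in the FJDHF group at an unadjusted p under 0.05 in the edgeR fit. Over all tested genes 0.773% were higher and 0.759% lower. The marker lists were chosen with earlier results of these data known, so these counts are a description only. The differentiated list had a median log2 fold change of 0.75. Its summed level was 10280 to 19400 CPM in the FJDHF and 3847 to 11540 CPM in the Model libraries, and no marker was at the floor. Its most abundant genes were Krt1 (1.48, SE 0.41) and Krt10 (1.23, SE 0.39), the keratins of the suprabasal layers, and the calmodulin-like Calm4 (1.55, SE 0.34). Of 10 markers of activated keratinocytes 2 were higher, Sprr2d (2.61, SE 0.79) and Stfa3 (1.59, SE 0.65), with a summed level of 1026 to 4210 against 279.1 to 2399 CPM. Their median was 0.82, and without MXL12 it was 1.88, with 5 of the 10 higher. Of 10 markers of basal keratinocytes 0 were higher or lower, with a median of 0.01 and a summed level of 2396 to 6181 against 1761 to 7666 CPM.

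Set against the mean log2 level of the basal list, the log2 fold changes of the ligands were 1.45 for Il1f6, 0.90 for Il1f8, 0.61 for Il1f9 and 0.89 for Il1f5. Set against the differentiated list they were 0.66, 0.11, -0.18 and 0.10, so Il1f6 stayed highest and the other 3 ligands lay near the list, while Il1rl2 and Il1rap had -1.25 and -1.44. In whole skin, fewer cells of a type and less RNA per cell cannot be told apart, and the part of epidermal make-up in the ligand levels was not tested. MR3, with the lowest ligand levels of its group, had a differentiated keratinocyte score of 7.57 (mean log2 CPM). This was near the low end of its group's range of 7.47 to 8.33. The lowest score of that group was in MR5, with 60.7 CPM of Il1f6 and 96.9 CPM of Il1f9. The Model library MXL1 had a score of 7.75, above MR3 and MR5, with 18.01 CPM of Il1f6. Il1f5 in MXL1, at 206.3 CPM, was also above MR3 and MR5. The summed level of that list in MR3, 10283 CPM, was the lowest of the FJDHF group, followed by 13512 CPM in MR3_4. MR3 also had the highest hair follicle score, 8.88 against 5.86 to 8.16 in the other libraries.

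**Figure D4:**
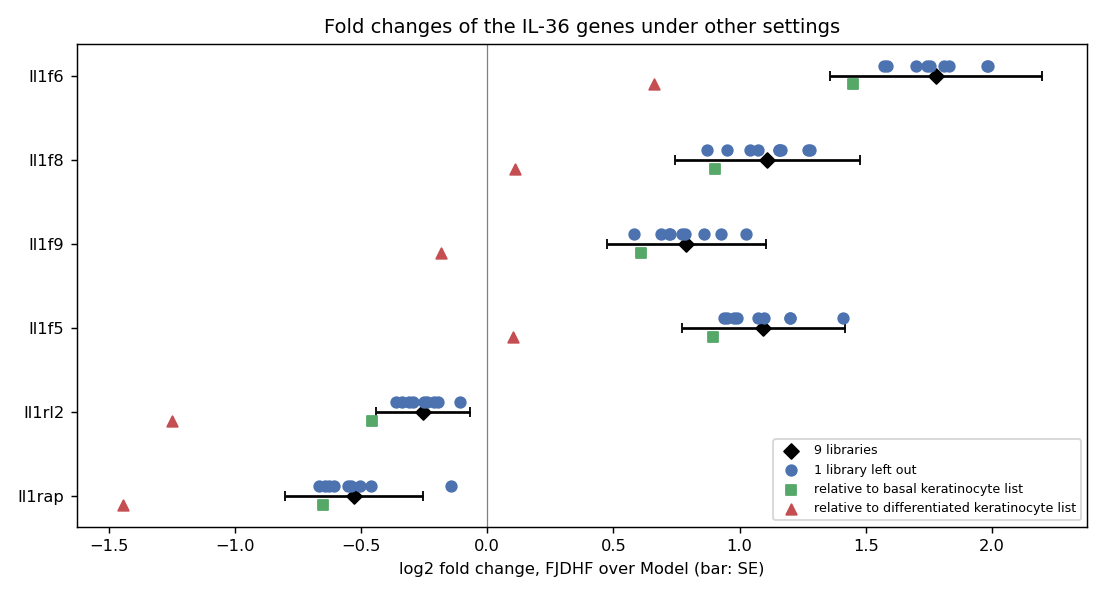
Log2 fold change of FJDHF over Model (horizontal axis) of each IL-36 gene, from all 9 libraries (black diamond, bar for the SE), with 1 library left out (blue) and relative to the mean log2 level of basal (green) or differentiated (red) keratinocyte markers. Relative to the differentiated list Il1f6 is at 0.66 and the other ligands lie between -0.18 and 0.11.

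MXL12, the library with the highest Il1rl2 and Il1rap levels, also had the highest neutrophil marker score, 3.21 (mean log2 CPM), followed by MXL_3 at 2.73, a gap that was small beside the range of the Model group. Of 9 tested neutrophil markers 0 were higher and 1, Mmp8, was lower in the FJDHF group. In all, 0 of the 9 had a log2 fold change above 0, beside 44.1% of all tested genes. The list's median was -0.99 with all libraries and -0.85 without MXL12, where 3 of the 9 were above 0. Its summed level was 23.1 to 271.9 CPM in the Model and 33.3 to 78.7 CPM in the FJDHF libraries. Cxcr2, a receptor of neutrophil-attracting chemokines, had 80.2 CPM in MXL12 and 3.15 to 12.5 CPM in the other 8 libraries. The list was not uniform, since the granule protein genes Ngp and Ltf had 3.08 and 2.42 CPM in MXL12 and 20.5 and 12.5 CPM in MXL_3, and Mpo had 0.0794 CPM in MXL12. The defining markers Ly6g and Mpo had at most 3 counts in at least 1 library, and Elane was not tested. The part of these cells in the Il1rap level was not tested. The other 8 marker lists, of hair follicle, sebaceous gland, macrophage, Langerhans and dendritic cell, T cell, fibroblast, skeletal muscle and adipocyte, had medians between -0.46 and 0.23, and in them 0 genes were higher and 2, Ccr7 and Col3a1, were lower.

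**Figure D5:**
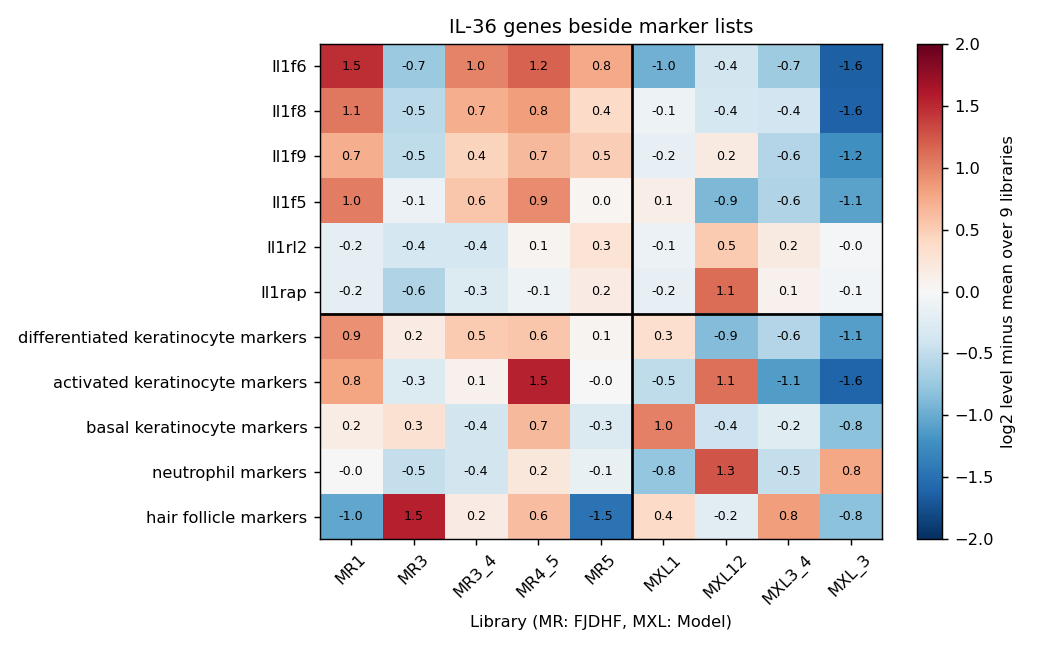
Log2 level minus the mean over the 9 libraries (colour and printed value) for each IL-36 gene, as log2(CPM + 0.5), and for the mean of marker lists, by library, with a black line between groups. Il1f6 is above its mean in 4 of the 5 MR libraries and below it in all 4 MXL libraries, and Il1rap in MXL12 is 1.12 above its mean.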

How the data were processed

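Back skin RNA was measured in 5 FJDHF and 4 Model libraries. The authors deposited whole-number read counts per gene, without normalization, and FPKM, in which the authors corrected counts for length and depth. The study describes strand-specific libraries of polyadenylated RNA; the submitters' processing notes list HISAT, StringTie, DESeq2 and the mm10 build, and versions, annotation and strand use in counting are not given in the sources used here. A further 9 columns repeat the counts and were not used.

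The members and lists were chosen with earlier results of these data known. Counts were fitted with edgeR 4.0.16 under R 4.3.3 (robust quasi-likelihood test, TMM scaling, filterByExpr, Benjamini-Hochberg over 20817 genes). Adjusted p under 0.05 with a fold change of at least 2 was the study's criterion. The floor was set at 3 counts per library, which covers counting error only. Since columns were not matched to mice, p-values measure the spread between libraries, which may be partly technical. Marker scores are means of log2(CPM + 0.5). Named genes were the 6 members, in each pathway list the genes at an unadjusted p under 0.05 or else the 2 with the smallest p, the 5 genes with the highest Pearson r with Il1f6 and 3 for each other member, and the 3 most abundant genes of a marker list; other names were chosen after their values were seen, and 1 gene picked by this rule is left out here. Alternatives were DESeq2 1.42.0 (size factors, Wald test), limma 3.58.1 on log2(FPKM + 1) and log2(FPKM + 0.1), no filter, at least 10 counts in every library, levels relative to keratinocyte lists, pseudocounts of 0.1 and 0.5 in the ratio, CPM for FPKM, and each library left out. The main edgeR fit was tested on simulated data, and the alternative fits were not. Transcript lengths and overlaps came from GENCODE M21, and promoters from RefSeq (GRCm38.p6), with 5 of 6 members matched. Python 3.11.15, scipy 1.17.1 and matplotlib 3.10.9 were used.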

Additional observations from a re-analysis of the deposited data

Results flagged for a closer look

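Il1rap in the Model library MXL12, at 184.6 CPM, lay far from the other Model libraries, with a gap to its nearest neighbour of 0.868 of the group's range, above Dixon's 95% critical value for 4 samples. On the log2(CPM + 0.5) scale the same gap was 0.805 of the range, below that value. The FPKM ratio of Il1rap to Il1rl2 in MXL12 was 0.558, against 0.349 to 0.361 in the other Model libraries and 0.311 to 0.389 in the FJDHF libraries, and its gap was 0.945 of the range. These were 2 of 26 groups of values examined, and chance flags about 1 in 20. The cause was not tested.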

How the results depend on the processing

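The ligands kept their direction with each library left out, at a log2 fold change of 1.57 to 1.99 for Il1f6, 0.87 to 1.28 for Il1f8, 0.58 to 1.03 for Il1f9 and 0.94 to 1.41 for Il1f5, and so did Il1rl2 (-0.36 to -0.11) and Il1rap (-0.67 to -0.14, the last without MXL12). Relative to the differentiated keratinocyte list the values were 0.66 for Il1f6, 0.11 for Il1f8, -0.18 for Il1f9, 0.10 for Il1f5, -1.25 for Il1rl2 and -1.44 for Il1rap. Of the 17 alternatives for each gene, this was the only one that turned a direction, that of Il1f9. The count of genes past the adjusted threshold was 0 with each library left out and 2 with DESeq2's Wald test. At an unadjusted p under 0.05, higher genes numbered 428 without a filter and 92 (without MR1) to 435 (without MXL1) with 1 library left out, and lower genes 248 with the Wald test, 498 without a filter and 103 (without MR4_5) to 284 (without MXL1). Of the pathway genes, 2 were higher with limma at either pseudocount (Il18 and Krt16), where the lower gene was Ctsg in place of Cxcl5, 2 were lower with DESeq2's size factors (Cxcl5 and Il33), 2 with the Wald test (Il33 and Il18r1) and 0 with at least 10 counts in every library, and with 1 library left out 0 to 4 were higher and 0 to 7 lower. With CPM in place of FPKM, which ignores length, the median Il1f6 share was 28.6% in the FJDHF and 19.3% in the Model group, and that of Il1f9 38.9% and 50.2%. With 1 library left out the mean log2 ratio of Il1f5 to the agonists differed by -0.35 to 0.06, so it has no stable direction, and the cause was not tested. No paired analysis was possible because the columns carry no replicate number of the labels.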
